A study of Saccharomyces cerevisiae with 4 samples.

Results

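The library described here holds ribosome footprints of Saccharomyces cerevisiae strain Y7092 that was wild type at VPS35 and carried the control plasmid pAG416GAL-ccdB. It was chosen by its labels, and it is 1 of 4 libraries of a ribosome profiling series on VPS35, a retromer subunit, and on TIF4631, the gene of translation initiation factor eIF4G1. Ribosome profiling sequences the mRNA pieces that ribosomes shield from nuclease, so the reads of an open reading frame (ORF) measure how many ribosomes were on it. Per the labels, the cells were in early log phase in synthetic defined medium, genes on the plasmid had been induced for 2 h, and the whole cell lysate was treated with RNase I after fast filtration, freezing and cryogenic grinding. The plasmid name gives a GAL promoter, and the labels do not name the sugar. With 1 library and no replicate, nothing below has a test, and intervals are 95% intervals for counting error alone. Because the reads carry no molecular identifiers, PCR copies of 1 fragment count separately, and the spread between cultures is not covered either. No matched RNA sequencing was analysed here, and for any ORF more mRNA and more ribosomes per mRNA cannot be told apart.

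Yeast turns galactose into glucose-6-phosphate by the Leloir pathway, whose enzymes are nearly silent on glucose and are switched on by the activator Gal4 when galactose is present. The sugar then passes through glycolysis, and budding yeast ferments much of it to ethanol even in air. Fast-growing cells are known to spend a large part of their protein synthesis on ribosomes and on glycolytic enzymes, which is the background for the allocation described below.

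The table lists 5441 ORFs with 17669055 counts in all, a count being 1 read assigned to an ORF. At least 10 counts were found for 5168 ORFs, at least 1000 for 2445 and at least 100000 for 14. The deposited RPKM, reads scaled by ORF length and by the total of the library, had a median of 37.0 and quartiles of 16.2 and 98.7. RPKM at the 90th percentile, 294.9, was 55.1 times that at the 10th, 5.35. The highest RPKM was 570 times the median. Of the 6021 protein-coding genes of the reference, 594 are not listed and were not analysed here. They include many near-identical duplicates such as TDH3, ENO2, TEF1, EFT1, SSA1 and SSB1, so every share below is a share of listed ORFs.

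Footprints were concentrated on few genes. The 10 ORFs with the most counts held 13.0% of all counts (95% exact binomial interval 13.02% to 13.05%), the top 100 held 38.8% and the top 1000 held 79.0%. A share of 25% of the counts lay on 37 ORFs, 50% on 200 ORFs, which is 3.68% of those listed, and 90% on 2006. The lower 2720 ORFs together held 5.72%. Measured per length, concentration was of the same order: 147 ORFs held 50% of the summed RPKM, and the 100 highest held 41.8%.

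**Figure D1:**
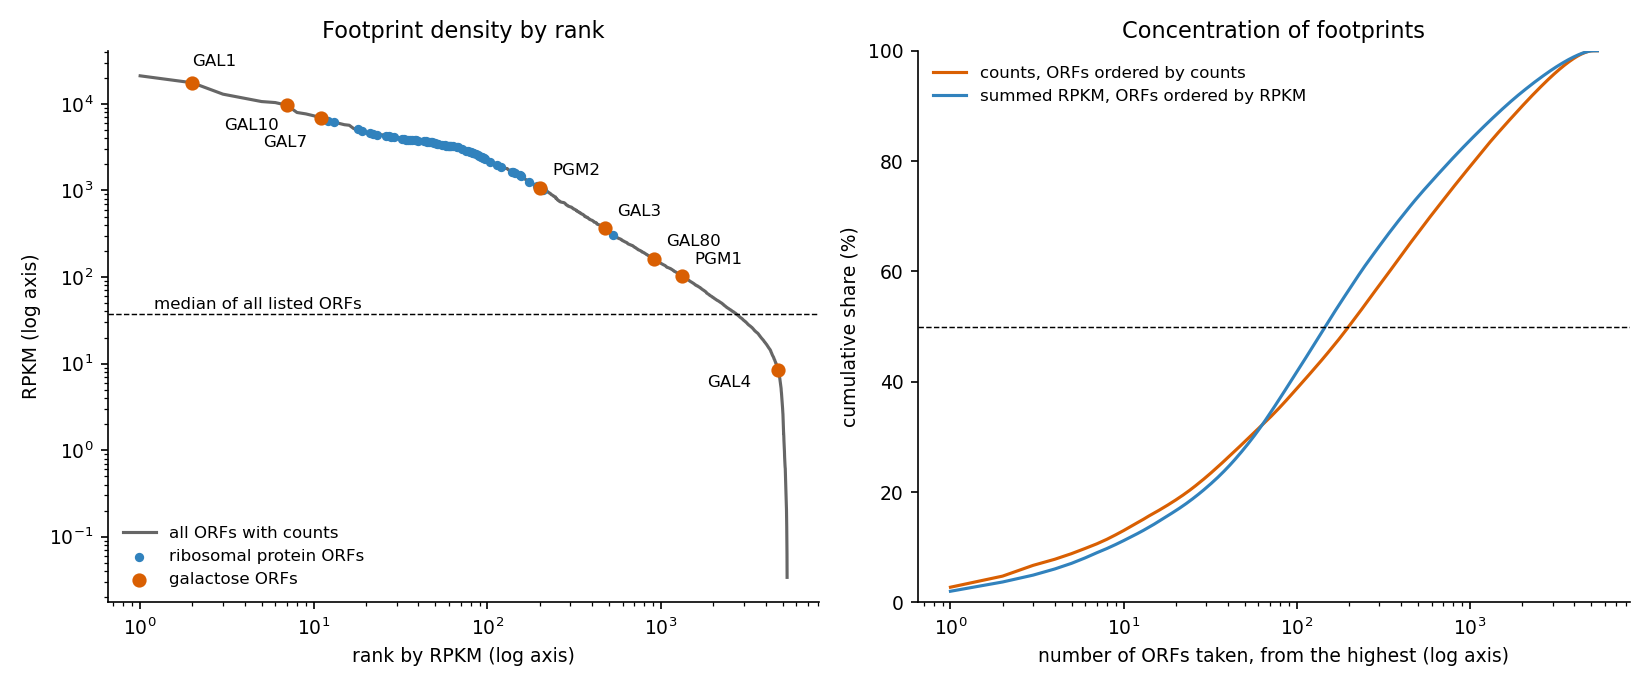
Left, RPKM of each ORF with counts (log axis) against its rank (log axis), with the 8 galactose ORFs and the 67 ribosomal protein ORFs marked and a dashed line at the median of 37.0 RPKM; right, cumulative share of counts and of summed RPKM over ORFs taken from the highest (log axis), with a dashed line at 50%. GAL1, GAL10 and GAL7 sit among the 11 highest ORFs, the ribosomal proteins form a dense band below them, and GAL4 lies under the median.

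GAL1, which encodes galactokinase, had the most counts of any ORF, 487262, or 2.76% of the library (2.75% to 2.77%). It was followed by GAL10 at 2.01%, the pyruvate decarboxylase gene PDC1 at 1.95%, the aldolase gene FBA1 at 1.10% and the plasma membrane proton pump gene PMA1 at 1.02%. The next places went to PGK1, the translation elongation factor 3 gene YEF3, ADH1, the cell wall mannoprotein gene CCW12 and the pyruvate kinase gene CDC19. Their shares ran from 0.948% for PGK1 to 0.771% for CDC19. Among the 30 ORFs with the most counts, 8 encode glycolytic enzymes, 3 galactose enzymes and 3 enzymes of lipid synthesis, and 1 encodes a ribosomal protein.

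The order changed when length was taken into account. By RPKM, CCW12 came first at 21110, ahead of GAL1 at 17543, the cell wall gene CWP2 at 12958, PDC1 at 11615 and YDR524C-B at 10650. YDR524C-B is a short ORF, with a coding length of 201 nt, whose product the reference calls uncharacterized. FBA1 at 10363 RPKM, GAL10 at 9660, ADH1 at 7962, PGK1 at 7667 and POR1, the porin of the mitochondrial outer membrane, at 7290 completed the first 10. Only 14 ORFs were in both top-30 lists. The 30 ORFs by counts had a median coding length of 1482 nt, those by RPKM 628.5 nt, and all ORFs 1230 nt. Of the 30 highest by RPKM, 11 encode ribosomal proteins, 5 glycolytic enzymes and 3 galactose enzymes.

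Sorted by function, the listed ORFs fell into 41 classes with 2930 ORFs and a remainder of 2511 ORFs that held 15.3% of the counts. Cytosolic ribosomal proteins took 9.32% of counts with 67 ORFs, the 8 galactose ORFs 5.80%, the 14 glycolytic ORFs 5.46% and 85 cell wall ORFs 5.37%. Amino acid synthesis followed at 3.85%, ethanol fermentation and acetate at 3.36%, synthesis of fatty acids, phospholipids and sphingolipids at 3.26%, and the nuclear-encoded respiratory chain with ATP synthase at 3.01%. By summed RPKM, which weights an ORF by its density and not by its length, ribosomal proteins took 20.4%, cell wall proteins 6.49%, respiratory subunits 5.03%, glycolysis 4.37% and galactose use 3.44%. Ribosomal proteins and respiratory subunits are short, with median coding lengths of 384 nt and 417 nt, and their share was higher by RPKM than by counts. Taken as broad sectors, 306 ORFs of protein synthesis held 16.2% of counts and 24.96% of summed RPKM, and 110 ORFs of central carbon metabolism held 19.0% and 13.1%. Both sectors lack genes that are not listed, among them 71 of 138 ribosomal protein genes and 5 of 19 glycolysis genes. These shares therefore do not rank the sectors as wholes.

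**Figure D2:**
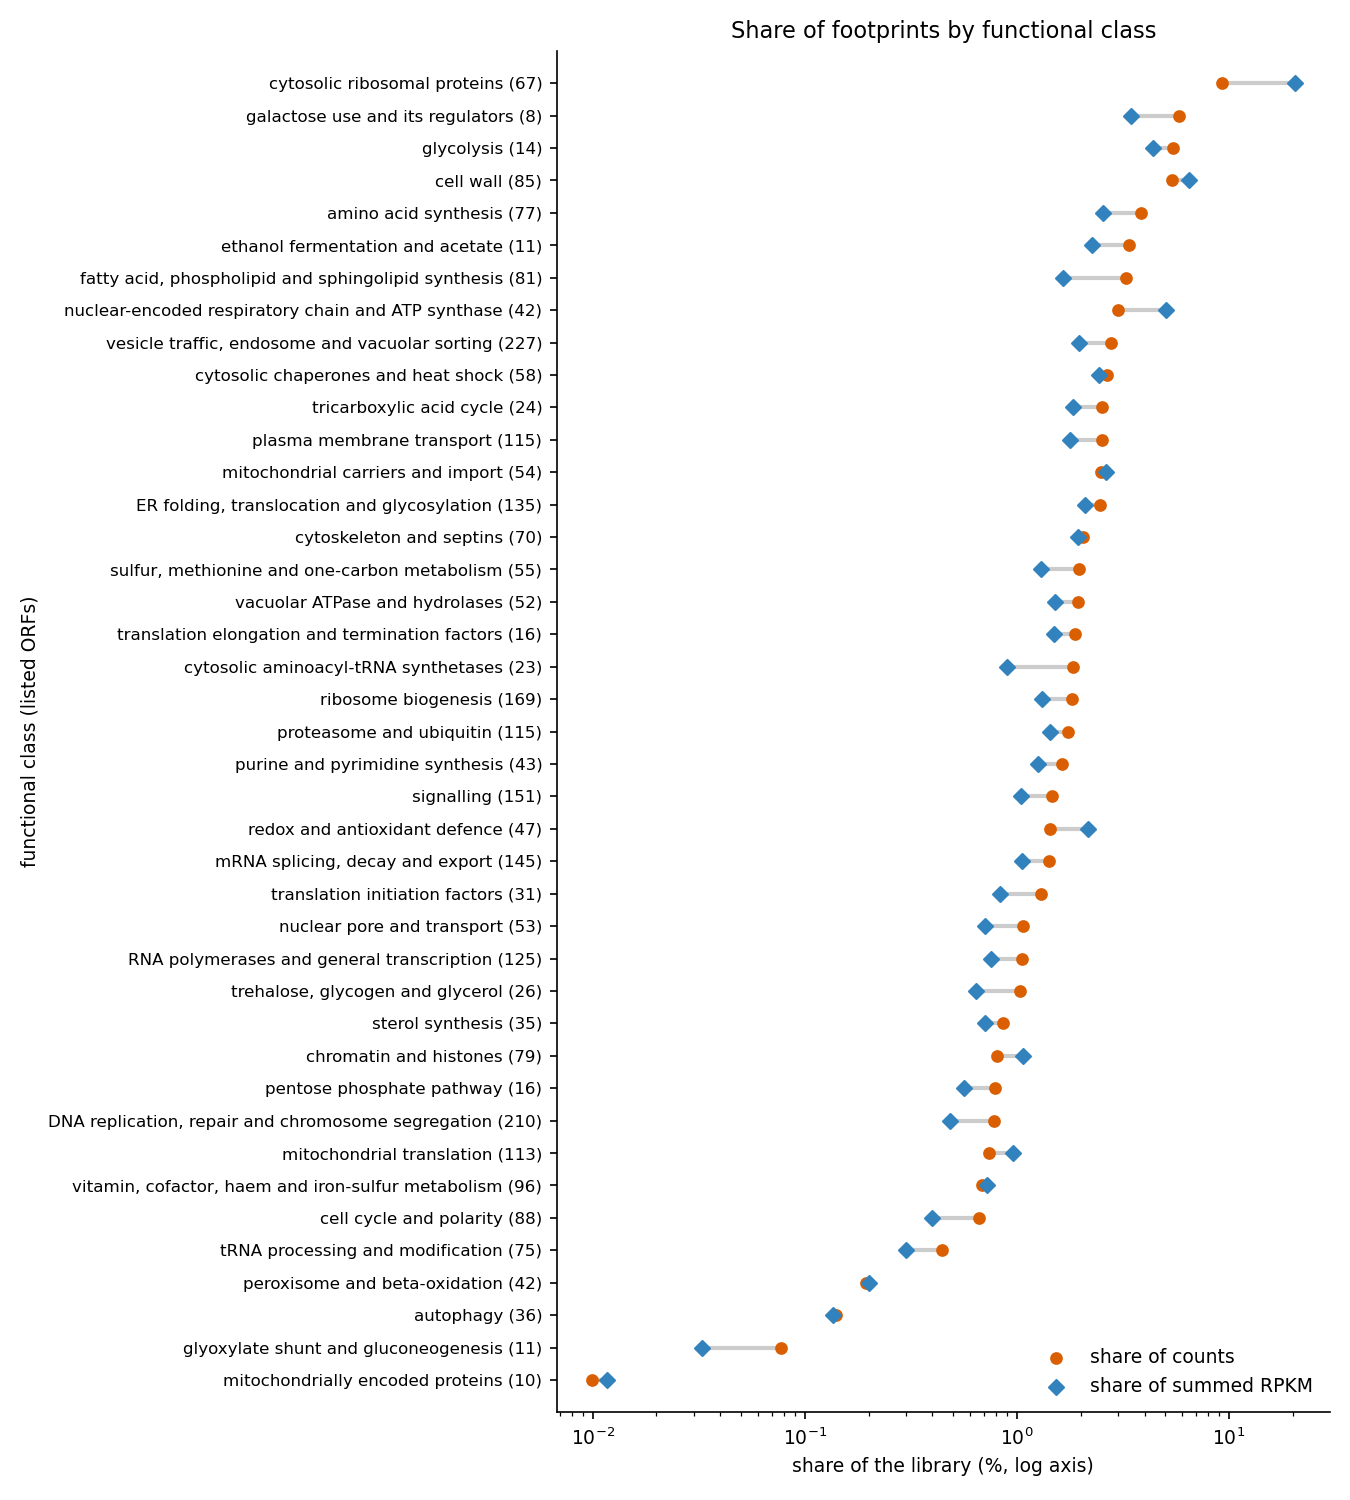
Share of the library (percent, log axis) held by each of 41 functional classes, as counts (circles) and as summed RPKM (diamonds), with the number of listed ORFs in brackets. Ribosomal proteins lead on both measures, at 9.32% and 20.4%, and the mitochondrially encoded proteins are lowest, at 0.00994% and 0.0116%.

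The Leloir enzymes stood far above the other galactose genes. GAL1 reached 17543 RPKM, GAL10, the epimerase, 9660 and GAL7, the uridylyltransferase, 6913, which placed them 2nd, 7th and 11th of all ORFs. On the RPKM scale GAL1 was 1.82 times GAL10 and 2.54 times GAL7. These genes lie side by side on chromosome II (sacCer3 274427 to 280607), and this stretch of 6181 nt held 5.52% of all counts (5.51% to 5.53%). Chromosome II as a whole held 12.4% of counts, or 7.31% without these 3 ORFs. GAL1 and GAL10, which lie on opposite strands, overlap another annotated gene, and whether the authors' counting used strand is not given in the sources used here.

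The phosphoglucomutases, which pass the pathway's product to glycolysis, were lower. PGM2 had 1076 RPKM and PGM1 101, so that PGM2 held 91.4% of their summed RPKM. The regulators were lower again: the galactose sensor gene GAL3 had 366 RPKM, the repressor gene GAL80 162 and the activator gene GAL4 8.32, from 387 counts. GAL1 was 48.0 times its sensor paralog GAL3 and 2107 times GAL4 on the RPKM scale, and GAL80 was 19.5 times GAL4. GAL4 was the only one of the 8 galactose ORFs under the median of all ORFs, and 5 of the 8 were in the highest decile. GAL2, the galactose permease gene, is not listed and was not analysed here.

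Gal4 binds a pair of CGG triplets on opposite strands, so its sites read CGG and CCG separated by 11 bases. These letters were searched on both strands in the 600 bases before each start codon, and 188 of 5421 ORFs with a reference sequence, 3.47%, held at least 1 match. Among the galactose ORFs 6 of 8 did, all but PGM1 and PGM2. Within 250 bases a match was found for 3 of the 8 and for 65 of the 5421 ORFs. A match is a description of the letters and not evidence of binding. The matches upstream of galactose genes are shown because GAL1, GAL10 and GAL7 are among the leading ORFs and GAL3, GAL80 and GAL4 regulate them, each on the strand of the gene, 5′ to 3′, with the triplets in capitals and the sequence from RefSeq R64, the assembly of sacCer3.
GAL1 site a: CGGattagaagccgCCG
GAL1 site b: CGGgcgacagccctCCG
GAL1 site c: CGGaagactctcctCCG
GAL7: CGGacaactgttgaCCG
GAL3: CGGtccactgtgtgCCG
GAL80: CGGcgcactctcgcCCG
GAL4: CGGtggcgcaggatCCG
GCY1: CGGggcagactattCCG
The 3 matches of GAL1 begin 453, 434 and 416 bases before its start codon (chromosome II, 278568 to 278621 from the first to the last), and read on the other strand they are those of GAL10. The GAL7 match begins 192 bases before the start codon and that of GAL80 172. GCY1, an aldo-keto reductase gene that sits outside the galactose class here, had 2116 RPKM and 1 match. It was not the only dense ORF outside the class with a match: POR1 at 7290 RPKM, RPS10A at 3691 and TMA19 at 2874 also had one, not shown. A match did not mark high density in general: the 188 ORFs with one had a median of 43.8 RPKM and those without 37.0.

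Of the 14 listed glycolytic ORFs, 11 were in the highest decile. The lower part of the pathway was densest: FBA1 had 10363 RPKM, PGK1, phosphoglycerate kinase, 7667, GPM1, phosphoglycerate mutase, 5951, TPI1, triosephosphate isomerase, 5669 and CDC19 5178. The upper part was lower, with the hexokinases HXK2 at 2960 and HXK1 at 2767, PGI1, phosphoglucose isomerase, at 2367 and glucokinase, GLK1, at 1158. Phosphofructokinase, the committed step of glycolysis, had the lowest density of the main enzymes, with 663 RPKM for PFK1 and 660 for PFK2. FBA1, the next enzyme, was 15.6 times PFK1. The minor isozymes GPM2, PYK2 and GPM3 had 57.0, 53.7 and 35.1 RPKM. The glyceraldehyde-3-phosphate dehydrogenase and enolase genes are not listed, so the share of glycolysis leaves out both steps.

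The main fermentation enzymes were as dense as the leading glycolytic ones. PDC1, which makes acetaldehyde from pyruvate, had 11615 RPKM and ADH1, which reduces acetaldehyde to ethanol, 7962, a ratio of 1.46. The mitochondrial alcohol dehydrogenase gene ADH3 had 630 RPKM, ADH5 46.2 and ADH4 6.64. The acetaldehyde dehydrogenases ALD6 of the cytosol and ALD4 of the mitochondrion were close, at 1193 and 1097, and the acetyl-CoA synthetase gene ACS2 had 646 against 13.1 for ACS1. In all, the 33 ORFs that lead from galactose to ethanol and acetate held 14.6% of counts (14.61% to 14.64%) and 10.1% of summed RPKM.

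**Figure D3:**
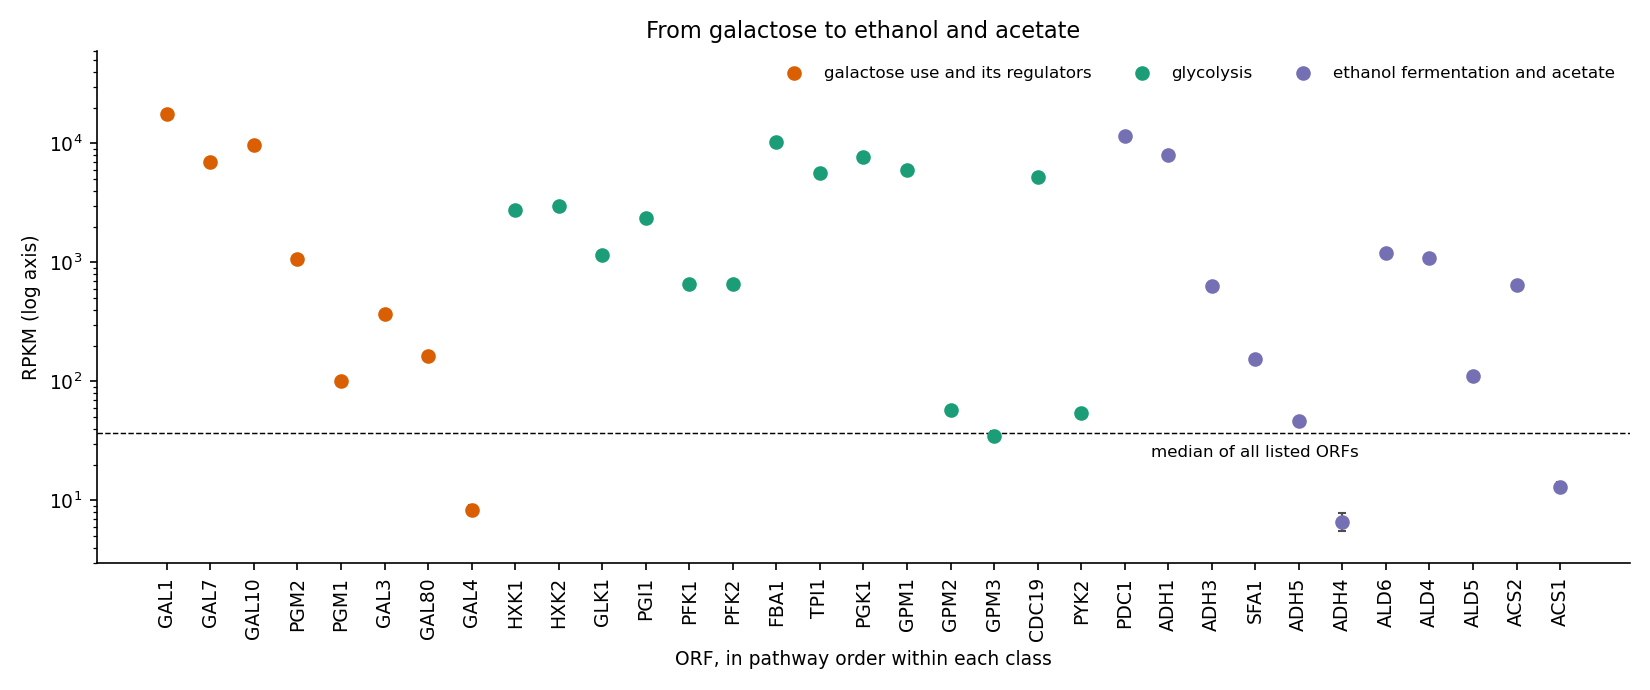
RPKM (log axis) of the 33 listed ORFs of galactose use, glycolysis, and ethanol and acetate formation, in pathway order within each class, with 95% Poisson counting intervals that are mostly smaller than the points and a dashed line at the median of all ORFs, 37.0. Enzymes from GAL1 to ADH1 run between 660 and 17543 RPKM apart from PGM1 and the minor isozymes, and GAL4, ADH4, ACS1 and GPM3 lie under the line.

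Genes for growth on carbon sources without sugar were low. The 11 listed ORFs of the glyoxylate shunt and gluconeogenesis held 0.0772% of counts, with a median of 14.2 RPKM. Most of this share, 0.0476% of counts, lay on the regulator gene ADR1 and not on an enzyme gene. ICL1, isocitrate lyase, had 17.8 RPKM, PCK1, phosphoenolpyruvate carboxykinase, 4.92, FBP1, fructose-1,6-bisphosphatase, 4.50 and MLS1, malate synthase, 4.18. The highest of them were MDH2, cytosolic malate dehydrogenase, at 121 RPKM and ADR1, a transcription activator, at 120. The pentose phosphate pathway was well above this level, with GND1 at 1717 RPKM, TAL1 at 1446 and TKL1 at 1127, and took 0.785% of counts. Storage carbohydrate and glycerol genes took 1.03%. After GCY1 the highest of that class were UGP1, which makes UDP-glucose and so also feeds the Leloir pathway, at 650 RPKM, and GPP1 at 505.

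Respiratory genes were dense in the same cells. Of the 42 nuclear-encoded ORFs of the respiratory chain and ATP synthase, 37 were in the highest decile of all ORFs, and their median was 1307 RPKM. The catalytic ATP synthase subunits ATP2 at 3447 RPKM and ATP1 at 2901 were the highest, followed by the cytochrome oxidase subunit COX7 at 2265. The 5 ORFs outside the highest decile were DLD1 at 83.6 RPKM, CYC7 at 79.8, COX5B at 73.8, CYB2 at 18.9 and NDE2 at 7.22. CYC7 and COX5B are the minor isoforms of cytochrome c and of a cytochrome oxidase subunit, and their main forms CYC1 and COX5A had 1733 and 1024. In the tricarboxylic acid cycle, 21 of 24 ORFs were in the highest decile, led by the citrate synthase gene CIT1 at 2078, malate dehydrogenase MDH1 at 1956 and aconitase ACO1 at 1708. These classes with the mitochondrially encoded ORFs held 5.55% of counts and 6.89% of summed RPKM.

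The listed ORFs of the mitochondrial genome were low, with a median of 9.36 RPKM over 10 ORFs. In the reference this class has 18, of which 8 are not listed. The 10 listed had 1756 counts in all, 0.00994% (0.00948% to 0.0104%), or 0.00475% without ORFs that overlap another gene. The highest were the subunit genes OLI1 at 28.3 RPKM, ATP6 at 23.4, COX2 at 22.4 and COX3 at 17.8. The median also covers AI1 at 9.30 RPKM and AI5_BETA at 0.270, which encode no respiratory subunit. COX4, a nuclear-encoded subunit of cytochrome oxidase, had 54.0 times the RPKM of COX2, a mitochondrially encoded subunit of the same enzyme, at 22.4. The library preparation, an RNase I digest, a sucrose cushion and fragments near the size of a cytosolic footprint, was not tested for how well it recovers mitochondrial ribosomes. Proteins that link mitochondria to the cytosol were high: POR1 had 7290 RPKM, the ADP/ATP carrier gene PET9 4387 and the phosphate carrier gene MIR1 2131. PET9 held 99.8% of the summed RPKM of the ADP/ATP carriers, with AAC1 at 7.98 and AAC3 at 1.49.

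The listed ribosomal protein ORFs formed a narrow band at the top. All 67 were in the highest decile, with a median of 3282 RPKM, quartiles of 2462 and 3841 and a standard deviation (SD) of 0.68 on the log2 scale, against 2.48 over all 5313 ORFs with counts. RPL39 at 6280 RPKM, RPS31, a fusion of ubiquitin to a small-subunit protein, at 6122, and RPL10 at 5171 were the highest. RPL22B at 306 was the lowest and stood apart from the next, RPL31B at 1025. The 20 ORFs without an A or B suffix, which as a rule are encoded once, had a median of 4170 RPKM, and the 47 with a suffix 2758. Both members were listed for 20 pairs formed by name, alike but for the suffix, with a median ratio of the higher to the lower RPKM of 1.41. Pairs formed this way, which include RPP1 at 1.24 and RPP2 at 1.16, need not be copies of 1 protein. The ratio was under 1.5 in 11 pairs, such as RPS16A at 2503 and RPS16B at 2378, and at least 2 in 8, up to 10.6 for RPL22A at 3232 and RPL22B. The other 71 of 138 ribosomal protein genes are not listed, and reads shared by close copies could have been split or dropped in the authors' counting.

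Elongation and termination factors had a median of 262 RPKM over 16 ORFs and initiation factors 257 over 31. The highest listed elongation factors were the eIF5A gene HYP2 at 4071 RPKM, the exchange factor gene EFB1 at 3041 and YEF3 at 2660. Of the 22 elongation and termination genes of the reference, 6 are not listed. The genes of elongation factors 1A and 2 are not listed, so the ranking and the median leave them out. The release factor genes SUP45 and SUP35 had 335 and 276. Among listed initiation factors the poly(A)-binding protein gene PAB1 had 879, the cap-binding protein gene CDC33 741 and the scaffold gene TIF4631 159. TIF4631 held 72.9% of the summed RPKM of the eIF4G pair, with TIF4632 at 59.2. Of the 33 initiation genes of the reference, 2 are not listed. The genes of initiation factor eIF4A are not listed, so this ranking and the median of initiation factors leave them out. Aminoacyl-tRNA synthetases had a median of 381 RPKM over 23 ORFs, and ribosome assembly factors one of 51.5 over 169.

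Of the 85 cell wall ORFs, 30 were in the highest decile, and the class median was 157 RPKM. After CCW12 and CWP2, the wall genes CIS3 at 3145 RPKM, ECM33 at 2594, the glucanosyltransferase gene GAS1 at 2233 and SCW4 at 2060 were the highest. The class ran down to DAN1, a mannoprotein gene known for expression without oxygen, which had 1 count. Plasma membrane transport was lower as a class, with a median of 28.2 RPKM and 10 of 115 ORFs in the highest decile. The class has 139 genes in the reference, of which 24 are not listed. Within it PMA1 had 3723 RPKM, its small regulatory proteolipid genes PMP1 and PMP2 3351 and 1792, and the inositol transporter gene ITR1 906. Of 17 hexose transporter genes looked up, only 5 are listed, so the order among all of them is not known. HXT1 had 430 RPKM, HXT8 183, HXT2 120, HXT10 18.0 and HXT14 0.141. GDP-mannose synthesis, which feeds glycosylation of wall proteins, was high through PSA1 at 2730 RPKM and SEC53 at 972, and the ER chaperones KAR2 and PDI1 had 761 and 749.

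In biosynthesis a few enzymes led each pathway. GDH1, which fixes ammonium into glutamate, had 3400 RPKM, ILV5 of branched-chain amino acid synthesis 1939 and LYS9 of lysine synthesis 1539. Methyl-group metabolism was led by SAH1 at 3173, the methionine synthase gene MET6 at 1969 and SAM2 at 1846. In lipid synthesis the highest was INO1, which makes inositol phosphate, at 2684 RPKM, followed by OPI3 at 1530. The fatty acid synthase subunits FAS1 and FAS2, which are very long, had 1002 and 890 RPKM and together 1.12% of counts. Nucleotide synthesis was led by ADK1 at 1536 and by the ribonucleotide reductase subunits RNR4 at 1407 and RNR2 at 1179.

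Chaperones and antioxidant enzymes were also represented near the top. The cyclophilin gene CPR1 had 4121 RPKM, the Hsp90 gene HSC82 3181, the peroxiredoxin gene TSA1 4635, superoxide dismutase SOD1 3734 and the flavohaemoglobin gene YHB1 2438. The small heat shock protein genes HSP26 and HSP12 had 1330 and 677 RPKM, and the disaggregase gene HSP104 645. Histones H2A and H2B ran from 1593 RPKM for HTA2 to 2165 for HTA1, and actin, ACT1, had 4411.

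Several classes of regulatory and maintenance proteins had low densities. DNA replication, repair and chromosome segregation took 0.782% of counts with 210 ORFs and a median of 15.9 RPKM, less than the median of all ORFs. Autophagy had 0.140% and a median of 18.0, and the peroxisome with beta-oxidation 0.194% and 21.8. Signalling proteins held 1.47% of counts with a median of 34.4 over 151 ORFs, although the 14-3-3 genes BMH1 and BMH2 reached 1889 and 1185. In the vesicle traffic class, which held 2.78% of counts over 227 ORFs with a median of 44.3, ARF1 at 1317 RPKM was the highest. Retromer, which returns cargo from endosomes, was close to that median, with VPS29 at 57.8, PEP8 at 52.5 and VPS35 at 43.9.

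Genes of other life-cycle states were near the floor. Of 60 listed genes of meiosis and spore formation, all were under the median of all ORFs, 53 were in the lowest decile, 7 had no count, and the highest, SPO73, had 17.4 RPKM. The 7 genes specific to cells of mating type a had between 0.644 and 1.66 RPKM, the pheromone receptor gene STE2 1.63 among them. The 4 listed genes specific to alpha cells were above the median of all, from SAG1 at 197 to AFB1 at 400, with the receptor gene STE3 at 287. Y7092 is known as an alpha strain.

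Marker genes can be set beside the known genotype of the strain, in which LEU2, MET15, CAN1, LYP1 and URA3 are deleted and HIS3 is partly so. LEU2, MET17, the current name of MET15, and CAN1 had 0 counts. A count of 0 may hide up to 3 counts, a share of 1.7e-05%. LYP1 had 15 counts, and HIS3 had 1146, or 100.1 RPKM. URA3, which the plasmid pAG416 carries, had 1080 RPKM and was 199th. The toxin gene ccdB of the plasmid is not in the list of yeast ORFs.

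Subunits of a complex had closely matched densities in a chosen set of 22 complexes with 100 subunits, picked with earlier results of these data known. There every subunit lay within 2-fold of the median of its complex on the RPKM scale, and the highest subunit was under 2 times the lowest in all 22. This did not extend to every assembly. Among 4 added afterwards, the highest subunit was 2.21 times the lowest in the nuclear-encoded part of cytochrome oxidase, 2.47 times in that of the cytochrome bc1 complex, 3.59 times in ATP synthase and 6.02 times in the vacuolar ATPase, from VPH1 at 298 RPKM to VMA3 at 1792. The median SD within the 22 complexes was 0.18 on the log2 scale, and the SD between the medians of these complexes was 1.39. Over all ORFs with counts, which include ORFs with few counts, the SD was 2.48. PFK1 and PFK2 were 1.005 times apart, and EGD2 and EGD1 of the nascent polypeptide-associated complex 1.03 times. The 14 subunits of the proteasome core ran from PRE10 at 201 RPKM to PRE7 at 308, and the 8 of the CCT chaperonin from CCT7 at 126 to TCP1 at 198. The widest ratio of highest to lowest in the 22 was that of the RNA polymerase II subunits, from RPB4 at 103 to RPB11 at 205, and the largest SD on the log2 scale, 0.44, was that of isocitrate dehydrogenase, with IDH2 at 1117 and IDH1 at 722. Complex medians differed far more, from 40.8 RPKM for the MCM helicase to 1683 for the nascent polypeptide-associated complex.

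**Figure D4:**
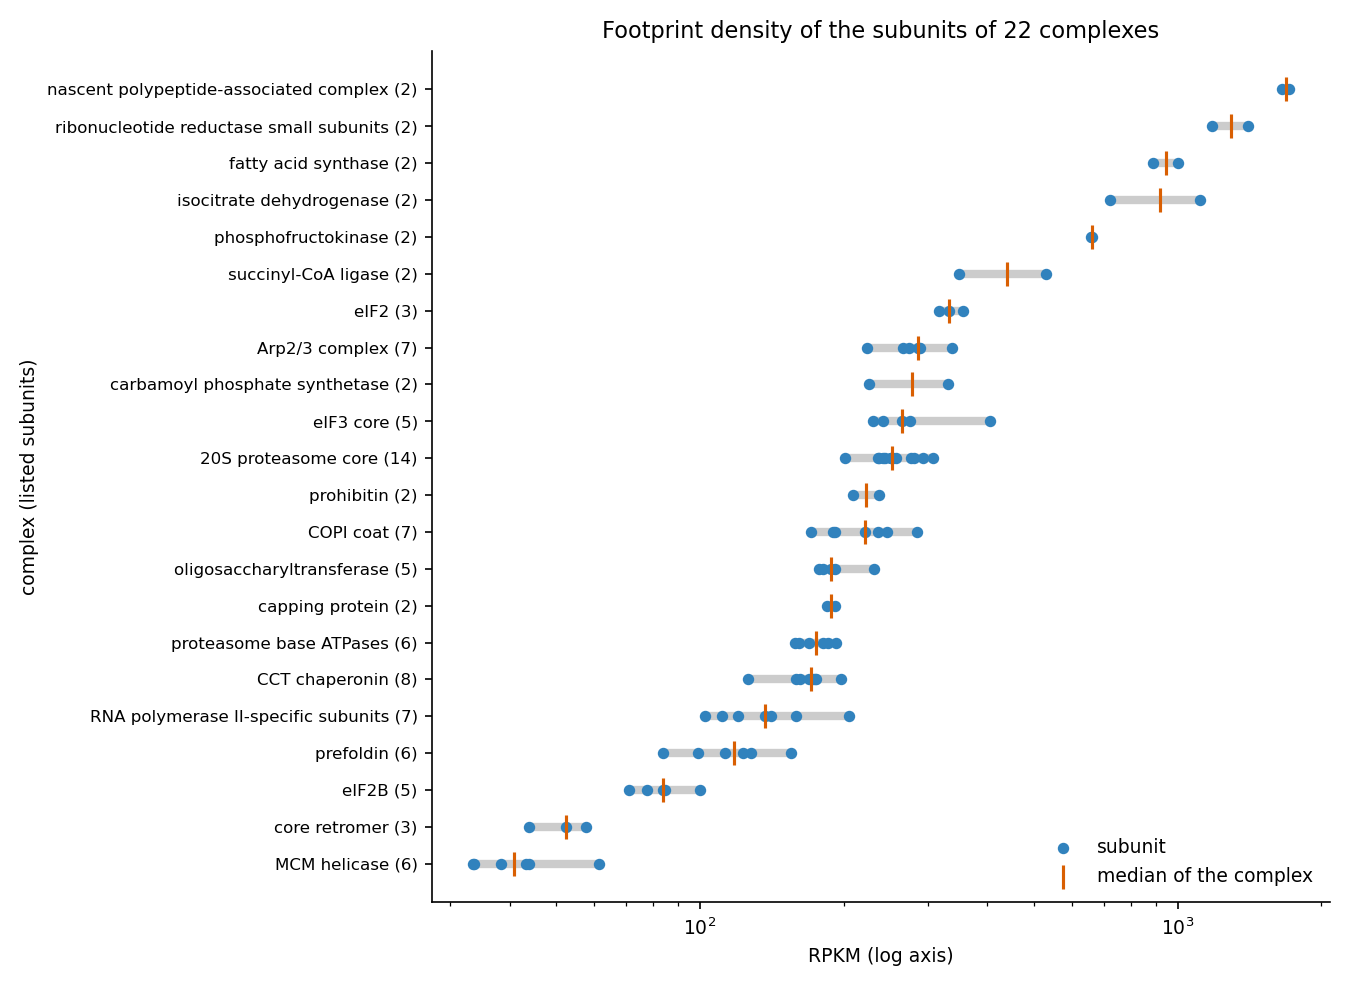
RPKM (log axis) of each subunit (points) of the 22 chosen complexes, ordered by their median (vertical marks), with grey bars from the lowest to the highest subunit. Subunits cluster within each complex, at most 1.996-fold from lowest to highest, and complex medians span 40.8 to 1683 RPKM.

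Duplicated genes were often unequal. For 435 pairs that descend from the ancient doubling of the yeast genome and have both members listed, the median ratio of the higher to the lower RPKM was 2.61, with quartiles of 1.48 and 6.26, leaving out 4 pairs with a member at 0 counts. A ratio of at least 10 was found in 78 pairs and of at least 100 in 27, while 109 pairs were under 1.5. Porin was an extreme case, with POR1 at 7290 RPKM and POR2 at 23.6, as were CDC19 and PYK2, 96.4 times apart, and TSA1 and TSA2, 101 times apart. The widest ratio among pairs with counts for both was that of YDR524C-B, at 10650 RPKM, against YCL048W-A at 1.76, from 7 counts. The succinate dehydrogenase subunits SDH1 and SDH3 were 592 and 770 times their paralogs SDH9 and SHH3. HXK2 and HXK1 were near equal, 1.07 times apart. Close duplicates that are not listed are outside these pairs.

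Use of preferred codons rose with density. A set of 23 codons is known as preferred in yeast because abundant tRNAs read them, and the share of an ORF's codons that belong to the set, methionine and tryptophan left out, was computed from the reference. The median share was 65.5% in the highest decile by RPKM, 52.8% in the next and 42.9% to 43.6% in the lowest 3. Across 5421 ORFs Spearman's rank correlation of this share with RPKM was 0.62, given as a description of 1 library whose points share its depth. For coding length it was -0.20 and for GC content 0.30. Weighted by RPKM, 66.0% of codons were of the set, against 47.8% without weights. Among synonyms, the glycine codon GGT was 70.9% of weighted glycine codons and 44.7% of unweighted ones, and the arginine codon AGA was 64.9% and 47.4%.

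The galactose enzymes had few preferred codons for their density. GAL1 had 53.6% preferred codons, GAL10 51.5% and GAL7 51.6%, below the lower quartile of the highest decile, 58.9%, though above the upper quartile of all ORFs, 50.9%. CCW12 had 96.9%, PDC1 96.3% and FBA1 94.8%, at RPKM values on either side of GAL1. The first 20 codons are shown to make the contrast visible, from RefSeq R64, 5′ to 3′ on the coding strand, with preferred codons in capitals.
CCW12: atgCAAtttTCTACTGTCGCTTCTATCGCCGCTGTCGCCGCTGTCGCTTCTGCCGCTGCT
PDC1: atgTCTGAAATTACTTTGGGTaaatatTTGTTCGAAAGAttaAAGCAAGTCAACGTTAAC
FBA1: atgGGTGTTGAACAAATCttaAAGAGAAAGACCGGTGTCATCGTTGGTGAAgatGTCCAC
GAL1: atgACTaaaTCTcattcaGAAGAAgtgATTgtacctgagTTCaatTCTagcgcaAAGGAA
GAL10: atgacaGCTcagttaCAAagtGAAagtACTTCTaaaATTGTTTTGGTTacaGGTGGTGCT
GAL7: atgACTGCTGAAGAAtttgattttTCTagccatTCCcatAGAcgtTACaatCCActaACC
GAL4: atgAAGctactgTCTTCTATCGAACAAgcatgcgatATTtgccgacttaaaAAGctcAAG
In these stretches 18 of 20 codons of CCW12, 16 of PDC1 and 17 of FBA1 belong to the set, against 9 of GAL1, 12 of GAL10, 10 of GAL7 and 9 of GAL4. GAL3, at 366 RPKM, was also in the highest decile with few preferred codons, 45.6%. The lowest share there was that of KGD4, a mitochondrial protein gene, at 40.7% with 420 RPKM. At the other end, ORFs rich in preferred codons but under the median RPKM included MFA1, a pheromone gene of the other mating type, at 82.4% with 1.18 RPKM, ADH4 at 79.8% with 6.64 and the phosphate transporter gene PHO84 at 75.4% with 35.8.

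The base at position -3, counted back from the A of the start codon, is known to matter for start recognition in eukaryotes, where a purine is favoured. A was at this position in 60.3% of the 5421 ORFs, in 79.2% of the highest decile by RPKM (95% exact binomial interval 75.5% to 82.5%) and in 48.0% of the lowest (43.7% to 52.3%). These intervals treat the ORFs of a decile as independent draws, which genes of 1 genome are not, and they do not measure counting error. T went the other way, from 4.24% in the highest decile to 16.4% in the lowest. Of the 100 ORFs with the highest RPKM, 84 had A, 11 G, 4 T and 1 C. Start contexts of the leading ORFs and of galactose regulators are given from RefSeq R64, with the 12 bases before the start codon and the codon after it, the start codon in capitals.
CCW12: actatatcaataATGcaa
GAL1: gaaaaaactataATGact
PDC1: aaatcaatcaaaATGtct
FBA1: tacatattcaaaATGggt
GAL10: aattcaatataaATGaca
GAL7: attccctcaaaaATGact
GAL80: tccactcccgtcATGgac
GAL4: gcctcctgaaagATGaag
GAL10 has T at -3 and was the highest ORF by RPKM with no purine there, ahead of RPL32 at 4924, which also has T. GAL80 has G, and the other ORFs shown have A, GAL4 with 8.32 RPKM included.

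**Figure D5:**
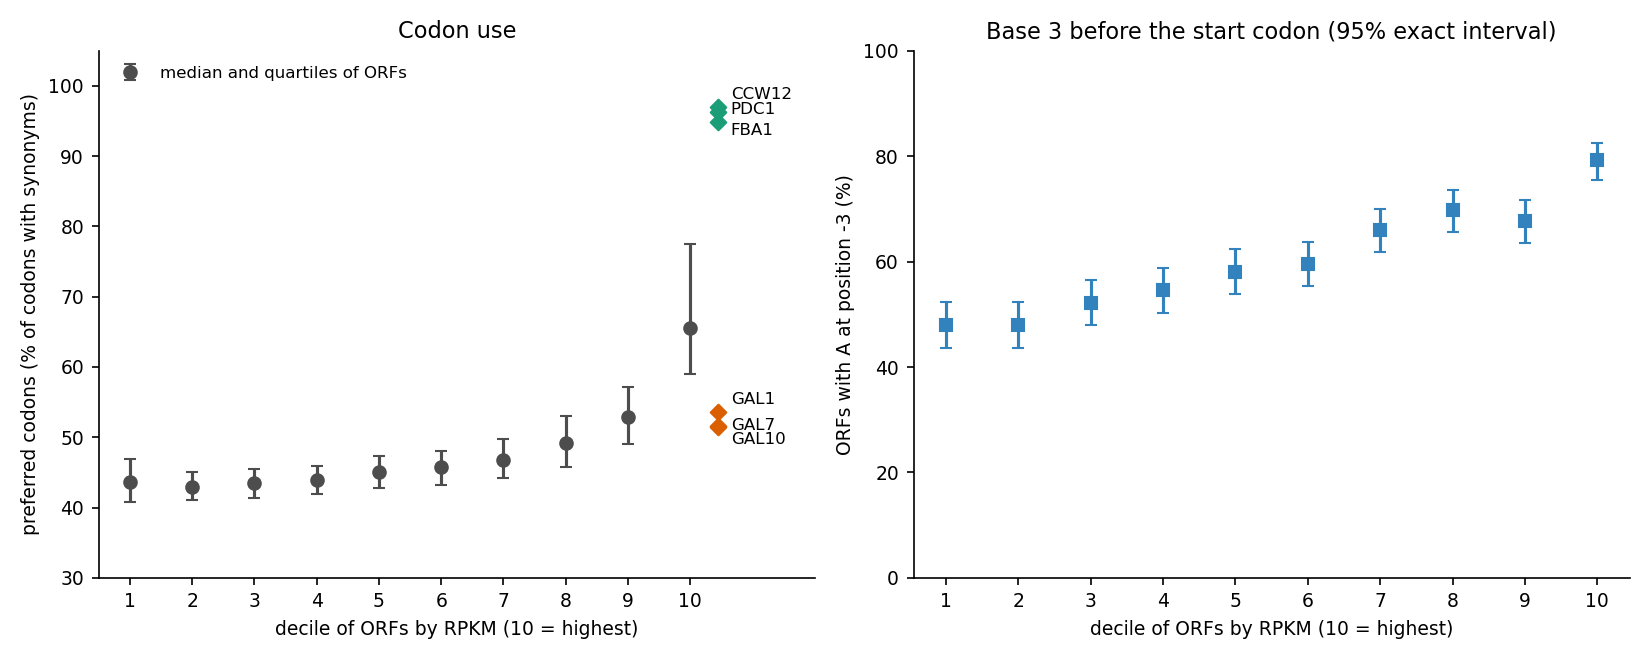
Left, median and quartiles of the percentage of preferred codons in each decile of ORFs by RPKM, with 6 ORFs of the highest decile as diamonds beside it; right, percentage of ORFs with A at position -3 in each decile, with 95% exact binomial intervals over the ORFs of the decile. The median of preferred codons climbs to 65.5% in the highest decile with GAL1, GAL10 and GAL7 at 51.5% to 53.6%, and A at -3 climbs from 48.0% to 79.2%.

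Upstream sequence of other leading classes differed in its short motifs. TATAAA, on either strand of the 250 bases before the start codon, was found in 42.5% of all ORFs, in 71.4% of the 14 glycolytic ORFs, in 4 of the 8 galactose ORFs and in 23.9% of the 67 ribosomal protein ORFs. ACCCNNACA, the core of sites for the activator Rap1, was searched on both strands of 600 bases and found in 5.87% of all ORFs, in 22 of 67 ribosomal protein ORFs, 32.8%, and in 5 of 14 glycolytic ORFs. In 250 bases it was found in 2.40% of all ORFs, in 3 of 67 ribosomal protein ORFs and in 1 of 14 glycolytic ORFs. None of the 8 galactose ORFs held it in either window. No match says only that these letters are not in the window.

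The proteins being made differed in composition from the list of ORFs. Weighting each reference protein by RPKM, alanine made up 7.95% of residues against 5.43% unweighted, glycine 6.40% against 4.96% and valine 6.79% against 5.54%. Asparagine went from 6.18% unweighted to 5.05% weighted, serine from 8.93% to 7.72% and leucine from 9.63% to 8.75%. Lysine was nearly equal, at 7.48% and 7.41%.

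ORFs without a class or a known product included some of the densest. Besides YDR524C-B, the highest with no class were HOR7 at 5753 RPKM, ZEO1 at 3170, TMA10 at 2989 and TMA19 at 2874. Of 392 ORFs whose product the reference calls uncharacterized, which held 1.27% of counts with a median of 7.12 RPKM, YJL047C-A at 1851 and YNL208W at 1225 came after YDR524C-B. ORFs with an intron were 3.82% of the list and held 7.56% of counts, and the 40 ribosomal protein ORFs among them held 4.72% of counts. No count was found for 128 ORFs. Of these, 77 have a coding length of up to 300 nt, and 3 belong to a class, LEU2, MET17 and CAN1.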

How the data were processed

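Ribosome footprints of 1 wild-type library with the control plasmid were analysed, and 3 other libraries of the series were not used here. The sacCer3 build, Bowtie2, CASAVA and cutadapt 1.3 are named per the submitters' processing notes. Which counting tool and ORF annotation were used, whether strand was, and how reads with several matches were treated is not given in the sources used here. The deposited counts are whole reads per ORF, named total reads per the file headers. The authors made the deposited RPKM relative to the length of the ORF and the total of the library, per the file headers. The length behind RPKM, recovered from its ratio to the counts, was 15 nt below the coding length of the reference, within 0.05 nt, for 99.9% of 5309 ORFs with counts.

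Of 5441 ORFs, 5438 matched a RefSeq R64 locus tag and 3 did not. Depth was 17669055 counts, which gives any ORF's share a 95% exact (Clopper-Pearson) interval of at most 0.00764 percentage points to either side. An ORF with 0 counts may hold up to 3. RPKM intervals are exact Poisson intervals of the counts. Each ORF was put in at most 1 of 41 functional classes. Classes, complexes and gene lists were chosen with earlier results of these data known, and the mating-type and meiosis lists after the tables were seen, so their values are descriptions. Genes to name were drawn from the 30 ORFs highest by counts and by RPKM, up to 4 highest and the lowest of each class, galactose genes, isozymes and complex subunits, the strain markers and the 10 highest ORFs in no class. Not all of these are named in the text, and other members named, with 4 assemblies added to the complexes, were chosen after their values were seen. The work was done in Python 3.11.15 with Biopython 1.88, scipy 1.17.1, pandas 2.3.3, matplotlib 3.10.9 and numpy 2.4.6, and the computations were tested on simulated data.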

Additional observations from a re-analysis of the deposited data

How the results depend on the processing

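No paired analysis was possible because only 1 library was described. Shares are of listed ORFs, so duplicated genes that are not listed limit every class total. Ordering by summed RPKM in place of counts moved the share of the top 10 from 13.0% to 11.2% and of the top 100 from 38.8% to 41.8%, that of galactose use from 5.80% to 3.44%, of glycolysis from 5.46% to 4.37% and of ribosomal proteins from 9.32% to 20.4%. Without the galactose class the shares were 10.1% for the top 10, 35.7% for the top 100, 5.80% for glycolysis and 9.89% for ribosomal proteins. Without ORFs whose span overlaps another gene they were 10.3%, 36.3%, 5.64% and 9.52%, and the galactose share was 1.10%, since this removes GAL1 and GAL10. The median RPKM was 40.0 over ORFs with at least 10 counts. The rank correlation of coding length and RPKM was -0.38 over ORFs with at least 100 counts and -0.17 without ribosomal proteins, against -0.20. Alanine was 5.43% unweighted. Of the other 38 classes, 9 had a higher and 29 a lower share by RPKM, 12 of them by over 1.5 times. The median SD within complexes was 0.19 on the log2 scale with 4 further assemblies chosen after seeing the data, against 0.18. A median over many complexes can hardly move when 4 are added, so it cannot show whether close matching extends to them. Their own SDs were larger, 0.55 for ATP synthase and 0.77 for the vacuolar ATPase. For nuclear-encoded subunits of cytochrome oxidase and of the cytochrome bc1 complex they were 0.34 and 0.46. The median SD moved by less than 0.005 under the 2 other alternatives, which could hardly move it. A minimum of 100 counts removed no subunit of the 22 complexes, and use of the full coding length changed lengths by about 15 nt. The number of ORFs that held 50% of counts stayed within 1.5 times, and the share of A at -3 within its binomial interval over ORFs.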
